A study of Mus musculus with 4 samples.

Results

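The regions described here are stretches of chromatin that were accessible in mouse embryonic stem cells of both genotypes and were no longer listed as accessible after 5 days of neural differentiation in either genotype. Accessibility was measured in nuclei by ATAC-seq, which uses a transposase to tag exposed DNA, and each of 4 libraries is given as the positions of its called peaks. The libraries came from Cdc14ab KO cells, in which the genes of the paired phosphatases Cdc14a and Cdc14b are knocked out, and from wild-type (WT) cells, each after 5 days in neural medium (N2B27 with EGF and FGF2) and at day 0 in medium with LIF, the cytokine that holds the cells in the pluripotent state. Each group held 1 library, labelled clone 3 in both genotypes, so a difference between genotypes cannot be told apart from a difference between cell lines and no difference has a replicate check. Feeder cells had supported the cultures and were depleted by a passage on gelatin.

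The regions were chosen by the peak lists themselves. Peaks of all 4 lists were joined wherever they overlapped by at least 1 bp, which gave 328597 merged regions. Of these, 18815 had a peak in both day 0 lists and in neither day 5 list, which is 5.73% of all merged regions and 11.4% of the 164833 regions shared by both day 0 lists. Presence and absence of a peak therefore defined the set and are given as a description. The rule did not use their place relative to genes, the sequence at gene starts inside them or the genes around them. It set no width either, but a wider region can overlap a day 5 peak more easily. Width is therefore not independent of the rule.

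Stem cells keep pluripotency through transcription factors such as OCT4 (gene Pou5f1), SOX2, NANOG, ESRRB and the KLF family, which bind enhancers, mostly away from gene starts, and hold them open. When LIF is withdrawn and neural medium is given, many of these enhancers close and others open. Gene starts rich in CpG dinucleotides (CpG islands) tend to stay accessible in most cell types, whether or not the gene is active, whereas CpG-poor starts open more often in particular tissues.

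The start of Pou5f1 was among the lost regions, and so were starts with many and with few CpGs. Retained starts also included CpG-poor ones: 2 Nanog starts in regions of all 4 lists, not shown, hold 3 and 2 CpGs in the 250 bases before them. The sequences show 6 starts that lay inside a lost region and, last, the start of Sox2, which lay in a region of all 4 lists. They are the 250 bases before each gene start on the gene's strand, 5′ to 3′, from RefSeq on GRCm38.p6 (the coordinates of mm10), with each CpG in capitals, and the examples were chosen after their values were seen. Pou5f1 (chromosome 17, 35505782 to 35506031, plus strand) holds 8 CpGs in this stretch, Foxd3 (chromosome 4, 99656049 to 99656298, plus) 21, Helt (chromosome 8, 46294672 to 46294921, minus) 21, Apoa1 (chromosome 9, 46228380 to 46228629, plus) 4, Muc1 (chromosome 3, 89228806 to 89229055, plus) 3, Trem2 (chromosome 17, 48346151 to 48346400, plus) 4 and Sox2 (chromosome 3, 34649745 to 34649994, plus) 27.
Pou5f1: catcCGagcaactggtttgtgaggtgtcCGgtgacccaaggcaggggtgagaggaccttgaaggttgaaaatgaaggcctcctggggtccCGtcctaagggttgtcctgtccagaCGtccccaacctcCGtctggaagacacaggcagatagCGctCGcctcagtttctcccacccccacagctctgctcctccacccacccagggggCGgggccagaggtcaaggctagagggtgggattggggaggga
Foxd3: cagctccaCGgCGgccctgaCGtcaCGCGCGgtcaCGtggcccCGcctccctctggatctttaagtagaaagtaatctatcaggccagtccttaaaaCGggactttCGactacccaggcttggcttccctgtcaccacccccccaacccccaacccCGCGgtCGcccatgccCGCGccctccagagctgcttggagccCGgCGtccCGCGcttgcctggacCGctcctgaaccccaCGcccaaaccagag
Helt: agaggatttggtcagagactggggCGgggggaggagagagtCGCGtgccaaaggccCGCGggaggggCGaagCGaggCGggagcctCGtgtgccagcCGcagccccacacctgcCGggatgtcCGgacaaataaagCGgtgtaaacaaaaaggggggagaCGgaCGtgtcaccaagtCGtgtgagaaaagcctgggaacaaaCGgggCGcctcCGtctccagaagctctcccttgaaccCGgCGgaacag
Apoa1: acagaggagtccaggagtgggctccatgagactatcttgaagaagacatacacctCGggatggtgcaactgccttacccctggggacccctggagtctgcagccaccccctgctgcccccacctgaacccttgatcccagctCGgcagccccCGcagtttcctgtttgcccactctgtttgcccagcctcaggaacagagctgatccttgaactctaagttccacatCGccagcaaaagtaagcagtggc
Muc1: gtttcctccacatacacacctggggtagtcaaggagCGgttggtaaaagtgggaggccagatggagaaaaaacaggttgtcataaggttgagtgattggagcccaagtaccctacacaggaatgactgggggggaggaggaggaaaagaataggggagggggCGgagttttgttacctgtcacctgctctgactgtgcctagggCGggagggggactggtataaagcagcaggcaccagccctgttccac
Trem2: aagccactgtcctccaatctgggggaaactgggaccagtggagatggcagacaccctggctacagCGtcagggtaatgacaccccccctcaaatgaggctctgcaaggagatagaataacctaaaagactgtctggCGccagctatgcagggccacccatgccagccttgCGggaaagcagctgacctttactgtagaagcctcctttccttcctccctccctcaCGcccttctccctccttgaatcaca
Sox2: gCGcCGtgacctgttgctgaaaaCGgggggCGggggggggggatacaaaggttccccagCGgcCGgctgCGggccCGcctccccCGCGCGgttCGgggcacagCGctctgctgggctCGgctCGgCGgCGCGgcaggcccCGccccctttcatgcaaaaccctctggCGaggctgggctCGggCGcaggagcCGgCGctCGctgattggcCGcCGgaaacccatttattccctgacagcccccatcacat

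The lists held 227878 peaks in KO and 189571 in WT at day 5, and 222257 in KO and 198860 in WT at day 0, with median widths of 873 to 882 bp. No height or read depth comes with the positions, so a region can leave a list through low coverage as well as through closing. The WT day 5 list was the shortest. Without that list, 24418 regions counted as lost (14.8% of the regions of both day 0 lists), and without the KO day 5 list 48184 did (29.2%). All intervals are exact 95% binomial intervals and cover counting error only.

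More regions lacked a day 5 peak in WT than in KO, and the WT day 5 list was also the shorter (189571 peaks against 227878). The part of list length in this difference was not tested. Of the regions shared at day 0, 24418 had no peak in KO at day 5 and 48184 had none in WT at day 5. The regions lost in both made up 77.1% (76.5 to 77.6) of those lost in KO and 39.0% (38.6 to 39.5) of those lost in WT. In the remainder, 29369 regions kept a peak in KO alone, 5603 kept one in WT alone and 111046 were in all 4 lists.

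Lost regions were narrower than those that stayed. Nearly all of them, 18640 (99.1%), were built from 1 peak in each day 0 list. Width here is the bases covered by all peaks of a library in a region, so a region of several peaks counts as wider. The median width of lost regions was 861 bp in KO at day 0 (quartiles 788 and 905) and 853 bp in WT at day 0 (781 and 897). In the regions of all 4 lists the day 0 widths were 889 bp in KO (851 and 917) and 885 bp in WT (846 and 911). Regions kept in 1 genotype lay between, with 879 bp in KO and 872 bp in WT where KO alone kept the peak, and 870 bp in KO and 863 bp in WT where WT alone did. In lost regions, the bases covered in both genotypes were a median 89.1% of those covered in either. This was 90.4% in regions kept in KO alone, 89.0% in those kept in WT alone and 93.6% in regions of all 4 lists. The KO width was the larger one in 53.1% of lost regions and the smaller one in 46.3%. The share lost was 30.9% (29.5 to 32.3) among regions whose smaller day 0 width was under 600 bp, 8.53% (8.31 to 8.74) at 850 to 899 bp and 2.59% (2.02 to 3.27) at 1000 bp or more. The widest class also takes in regions built of several peaks. Loss thus became less frequent with width up to 949 bp, was 7.56% (6.54 to 8.68) at 950 to 999 bp, and was lowest in the widest class. How width relates to read depth, to the strength of a peak, to the number of peaks in a region or to the overlap rule was not tested.

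The 5 widest lost regions, by the narrower of the KO and WT day 0 widths, were each built of 2 peaks in both genotypes. The widest lay 3867 bp from Slc25a12, a mitochondrial aspartate-glutamate carrier (chromosome 2, 71371648 to 71373623), with 1823 bp covered in KO and 1715 bp in WT at day 0, and the nearest day 5 peaks were 2607 bp away in KO and 2630 bp in WT. The others lay in Cnot2, a subunit of the CCR4-NOT deadenylase (1537 bp in KO, 1496 in WT), Mtus2 (1752 and 1486), Tmem38a, an ion channel of the endoplasmic reticulum (1476 and 1483), and Lamb1, a laminin chain (1589 and 1445). The day 5 peak nearest to any of these 5 stood 1593 bp away, in KO at Mtus2.

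Gene starts were seldom among the lost regions. A protein-coding start lay inside 1.06% of lost regions (0.916 to 1.21) and inside 12.5% of regions of all 4 lists (12.3 to 12.7). Within 1 kb of a start lay 4.45% of lost regions (4.16 to 4.75), 3.51% of regions kept in KO alone (3.30 to 3.72), 5.75% of those kept in WT alone (5.15 to 6.39), 15.6% of those in all 4 lists (15.3 to 15.8) and 2.47% of the 16475 regions listed at day 5 in both genotypes and at day 0 in neither (2.24 to 2.72). Gene ends stood in for starts in 4395 of 21887 genes. With annotated starts alone the share was 2.82% in lost regions and 12.04% in regions of all 4 lists, and with only the lost regions that had no day 5 peak within 500 bp it was 2.61%. Gene bodies held 52.3% of lost regions, 48.6% of those kept in KO alone, 51.8% of those kept in WT alone and 42.1% of those in all 4 lists. Intergenic sequence held 43.2, 47.9, 42.4 and 42.3% in that order. Gene bodies held 46.8% of regions listed at day 5 alone in both genotypes. Regions within 1 kb of a start count in neither class, and these were most frequent in all 4 lists.

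**Figure D1:**
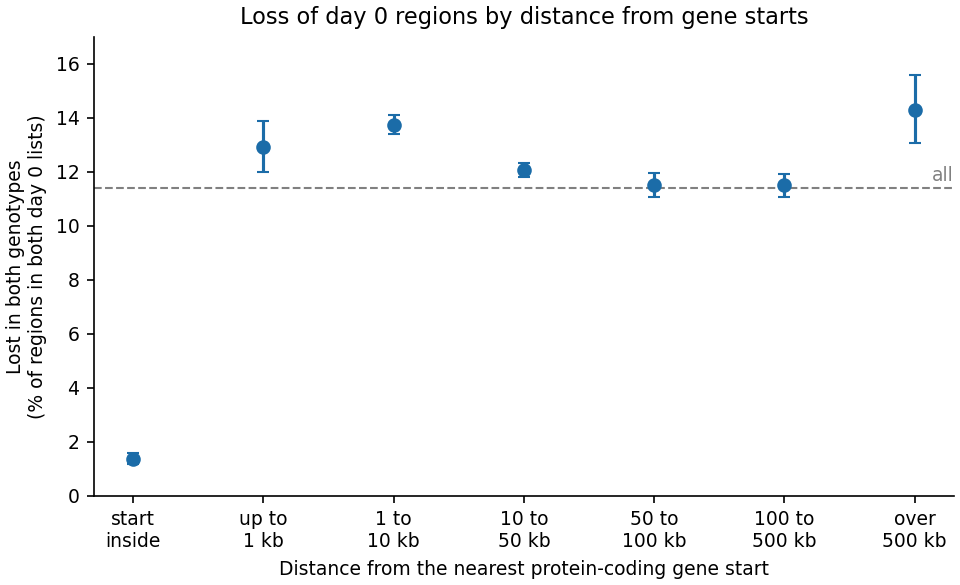
Share of regions of both day 0 lists that were lost in both genotypes (y axis, percent) by distance from the nearest protein-coding gene start (x axis). Points are shares with exact 95% binomial intervals, and the dashed line is the share over all regions (11.4%). The share is 1.37% where a start lies inside the region and between 11.5 and 14.3% in every class beyond it.

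The share lost was 1.37% (1.19 to 1.57) of the 14519 day 0 regions with a start inside, and 12.9% (638 regions) of the 4940 with a start up to 1 kb away. It was 13.7% (13.4 to 14.1) at 1 to 10 kb, 12.1% at 10 to 50 kb, 11.5% at 50 to 100 kb, 11.5% at 100 to 500 kb and 14.3% (13.1 to 15.6) beyond 500 kb. From 1 bp outwards the share stayed between 11.5 and 14.3%, but 401 of the 638 lost regions up to 1 kb away had a day 5 peak within 500 bp. The lower share over starts was also seen within width classes. Among regions of 850 to 899 bp, 0.659% (0.473 to 0.893) were lost with a start inside and 9.43% (9.20 to 9.68) beyond 1 kb, and under 600 bp the shares were 9.90% (6.06 to 15.02) and 31.7% (30.2 to 33.3). With a start up to 1 kb away the shares were 5.85% (4.61 to 7.32) at 850 to 899 bp and 33.8% (28.8 to 39.2) under 600 bp.

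**Figure D2:**
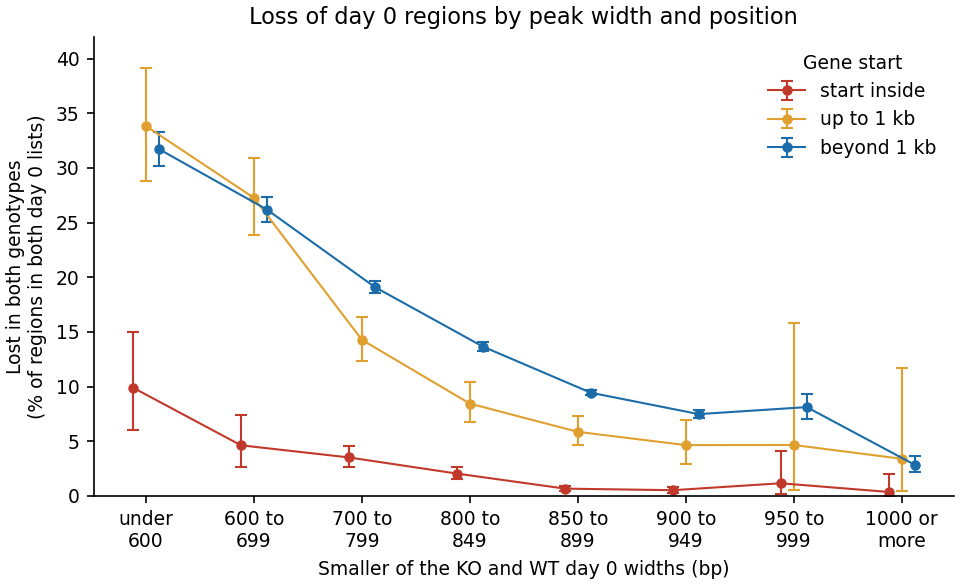
Share of regions of both day 0 lists that were lost in both genotypes (y axis, percent) by the narrower of their KO and WT day 0 widths (x axis, bp), for regions with a gene start inside, up to 1 kb away or beyond 1 kb. Points carry exact 95% binomial intervals. A width is the bases covered by all peaks of a library in the region. Regions with a start inside have the lowest share in every width class, from 9.90% in the narrowest to 0.353% in the widest.

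Many lost regions close to a start had a day 5 peak nearby, and whether that peak was already listed at day 0 was not counted. A day 5 peak of either genotype lay within 500 bp of 4518 lost regions (24.0%), and of 62.9% (59.0 to 66.6) of those up to 1 kb from a start, against 21.9% of those in gene bodies and 23.3% of intergenic ones. The lost regions with such a neighbour were narrower, with a median of 755 bp against 847 bp in the others. The median distance from a lost region to the nearest day 5 peak was 1610 bp in KO and 2170 bp in WT. At the limit of the rule, 12 lost regions touched a day 5 peak without a shared base. Among genes of the lists below, a lost region in Mybl2 (a cell cycle transcription factor) touched a KO day 5 peak, and one in Jarid2 (a Polycomb cofactor) lay 8 bp from a KO and 7 bp from a WT day 5 peak. Just outside the limit, regions at Elf5 and Pou3f1, which share 21 and 61 bp between day 0 and day 5 peaks, counted as kept in KO alone and in WT alone.

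Of the 13676 annotated protein-coding starts that lay in a region of both day 0 lists, 118 were lost in both genotypes, which is 0.863%. They belong to 113 genes in 113 regions. In 75 of these genes the lost start is the only annotated one, in 26 another start lay in a region of all 4 lists, and 12 had other starts but none in all 4 lists. Starts of other genes, mostly noncoding, were lost more often: 141 of 3656 (3.86%, 3.26 to 4.53).

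Lost starts were poor in CpG. The 300 bases from 250 before to 50 after the start held a median of 5 CpGs (quartiles 3 and 9) in lost protein-coding starts and 21 (13 and 29) in starts of all 4 lists, with a GC content of 51.3 and 61.7%. Among protein-coding starts open at day 0, 7.98% (5.28 to 11.5) of those with 0 to 2 CpGs were lost, 4.79% of those with 3 to 5, 1.93% with 6 to 10, 0.316% with 11 to 20 and 0.118% (0.0511 to 0.233) with 21 or more. Starts of other genes followed the same order, from 10.6% (7.86 to 13.8) at 0 to 2 CpGs to 0.542% (0.176 to 1.26) at 21 or more. Starts kept in 1 genotype were also CpG-poor, with medians of 6 CpGs where KO alone kept the peak and 6.5 where WT alone did.

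**Figure D3:**
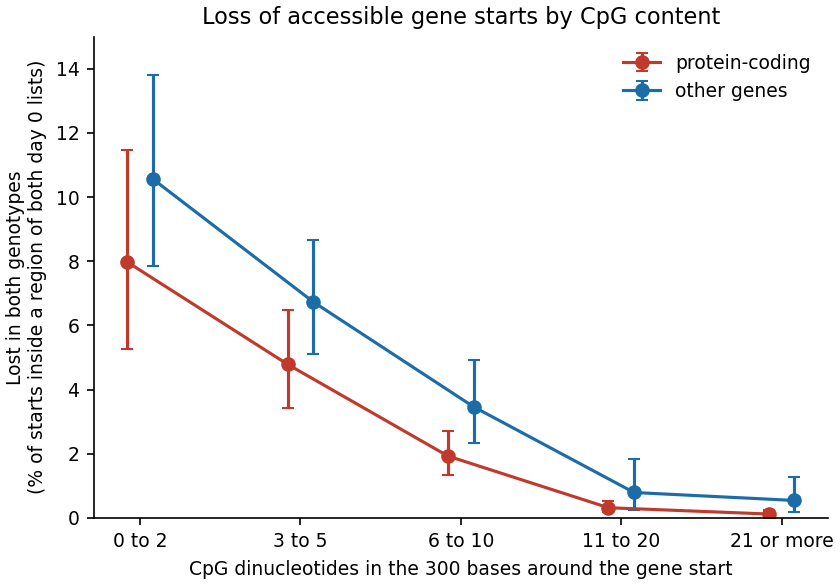
Share of gene starts inside a region of both day 0 lists that were lost in both genotypes (y axis, percent) by the number of CpGs in the 300 bases around the start (x axis), for protein-coding and other genes. Points carry exact 95% binomial intervals. The share falls in every step, from 7.98 to 0.118% for protein-coding starts and from 10.6 to 0.542% for the others.

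The lost starts with few CpGs include those of Apoa1, Trem2 and Muc1, which were picked from the 113 genes as examples. Apoa1, the main protein of high-density lipoprotein, had 718 bp covered in KO and 692 bp in WT at day 0, and its nearest day 5 peaks were 618 bp away in KO and 621 bp in WT. Trem2, a receptor of microglia and macrophages, had 841 bp in KO and 762 bp in WT, with day 5 peaks no nearer than 2901 bp in KO and 8216 bp in WT. Muc1, a mucin of epithelial surfaces, had 706 bp in KO and 777 bp in WT, but day 5 peaks stood 156 and 126 bp away. A CpG-poor start of Ikzf1, a zinc finger factor of lymphoid cells, was lost while another start of the gene stayed in all 4 lists, and the same held for Abcg2, a drug efflux transporter, and Pcgf5, a Polycomb subunit.

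A few lost starts were CpG-rich, and 8 of 6755 starts with 21 or more CpGs were lost. Of these 8, 5 had a day 5 peak within 500 bp, against 35 of all 113 regions over a lost start (31.0%). Foxd3, a forkhead factor of pluripotent cells and neural crest with 25 CpGs in its 300 bases, had 907 bp covered in KO and 926 bp in WT at day 0, and its nearest day 5 peaks lay 628 bp away in KO and 677 bp in WT. Helt, a bHLH factor of midbrain neurons with 21 CpGs, had 748 and 747 bp, with the nearest day 5 peaks at 2267 bp in KO and 4066 bp in WT. Prdm16, a zinc finger regulator of brown fat with 24 CpGs, had 735 and 661 bp, and a WT day 5 peak stood 8 bp away.

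Short motif cores were counted in the 300 bases of the 118 lost and the 13230 retained protein-coding starts, on both strands. The POU octamer ATGCAAAT was found in 0.847% of lost starts (0.0215 to 4.63), 1.47% of starts in all 4 lists and 1.74% of all 32851 starts in the table. The SOX core ACAATG was found in 9.32, 6.78 and 12.6% in that order, ESRRB and NR5A2's CAAGGTCA in 2.54, 0.907 and 1.56%, and the KLF core GGGTGTGG in 4.24, 3.72 and 3.56%. The GATA core AGATAA was found in 16.1% of lost starts (9.98 to 24.0), 5.52% of starts in all 4 lists and 11.2% of all. With at most 10 CpGs, the GATA share was 19.6% (12.2 to 28.9) of 97 lost starts and 11.97% (10.7 to 13.3) of 2465 starts in all 4 lists. The other cores searched were TTGTNATG (SOX-POU composite), TTCCNGGAA (STAT), GGAATG (TEAD), CCACNAGGN (CTCF), TGANTCA (AP-1), CAGCAGG (ZIC) and CAGCTG (E-box), found in 1.69, 0.847, 16.9, 7.63, 9.32, 11.02 and 21.2% of lost starts and in 3.37, 1.15, 14.7, 4.98, 7.81, 10.5 and 16.3% of all starts. In starts of all 4 lists, in the same order, they were found in 1.63, 1.25, 11.8, 5.61, 4.77, 10.7 and 15.2%. For every core searched, GATA included, the interval in lost starts held the share over all starts. All starts include those of other genes and those without a peak. Against starts of all 4 lists, the GATA interval lay above their share, also with at most 10 CpGs, where its lower end (12.2%) was close to that share (11.97%). The intervals are not corrected for the number of cores searched. The intervals of the other cores held the share of starts in all 4 lists. These are matches of letters in a short window, not sites. Most lost regions are distal, and their sequence was not analysed here.

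At Pou5f1, 3 lost regions lay within 50 kb, and 2 of them lay within 1 kb of the gene start at 35506032. The peak over the start spanned 35505723 to 35506455 in KO at day 0 and 35505728 to 35506481 in WT at day 0. The nearest day 5 peak was 294 bp away in KO and 1221 bp away in WT. A second lost region, 572 bp upstream of the start, spanned 35504639 to 35505460 in KO and 35504596 to 35505456 in WT at day 0, and the nearest day 5 peaks stood 79 and 94 bp away. These 79 and 94 bp lead to a peak further upstream that was present in all 4 lists, at 35503662 to 35504516 in KO and 35503669 to 35504501 in WT at day 5, and at 35503607 to 35504449 in KO and 35503643 to 35504438 in WT at day 0. The third lost region lay about 8.8 kb upstream and measured 796 bp in KO and 829 bp in WT. Downstream of the start the genotypes differed: KO at day 5 had a peak at 35506776 to 35507526 that no other library had, which is the one 294 bp from the lost region, and the peak at 35507660 to 35508534 in KO at day 5 was in both day 0 lists and had no counterpart in WT at day 5. Pou5f1 is known to have a proximal and a distal enhancer upstream of its start, of which the distal one drives it in naive cells. The whole locus held 32 peaks in KO and 22 in WT at day 5, and 34 in KO and 30 in WT at day 0.

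**Figure D4:**
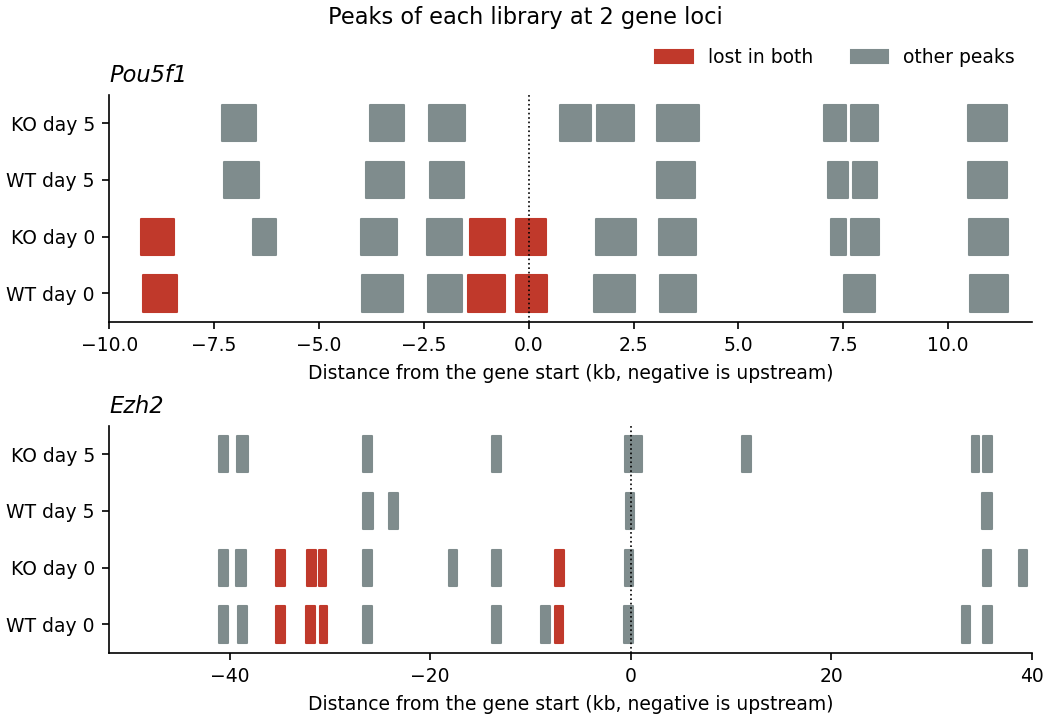
Peaks of the 4 libraries around the starts of Pou5f1 and Ezh2, by distance from the gene start in kb (x axis, negative is upstream), with KO above WT at each day. Red bars are peaks of regions lost in both genotypes and grey bars are all other peaks. At Pou5f1 the red peaks cover the start and the stretch from 572 bp upstream, and another lost region lies about 8.8 kb upstream. At Ezh2, 4 of its 6 lost regions lie upstream, and the remaining 2 are outside the range drawn.

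At the loci of pluripotency genes, the share of day 0 regions lost had an interval that held the share over all regions. A locus is the gene with 50 kb on each side, and 15152 of 21887 protein-coding genes (69.2%) had at least 1 lost region there. Among naive pluripotency genes, 15 of 16 had one, and 49 of 351 day 0 regions were lost (13.96%, 10.5 to 18.0), an interval that holds the share over all regions (11.4%). Among core pluripotency genes, 10 of 12 had one, and 24 of 267 regions were lost (8.99%, 5.84 to 13.1). A region near several genes of a list was counted once for the list. The median over the genes of a list was 11.8% for naive and 8.47% for core pluripotency. It was 11.1% over the 11819 genes with at least 15 day 0 regions, whose quartiles were 5.88 and 16%. No such floor was set for the lists. The naive median includes Nr0b1, Klf4 and Tcl1, with 3, 10 and 10 day 0 regions, so it is not matched to the 11.1%.

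**Figure D5:**
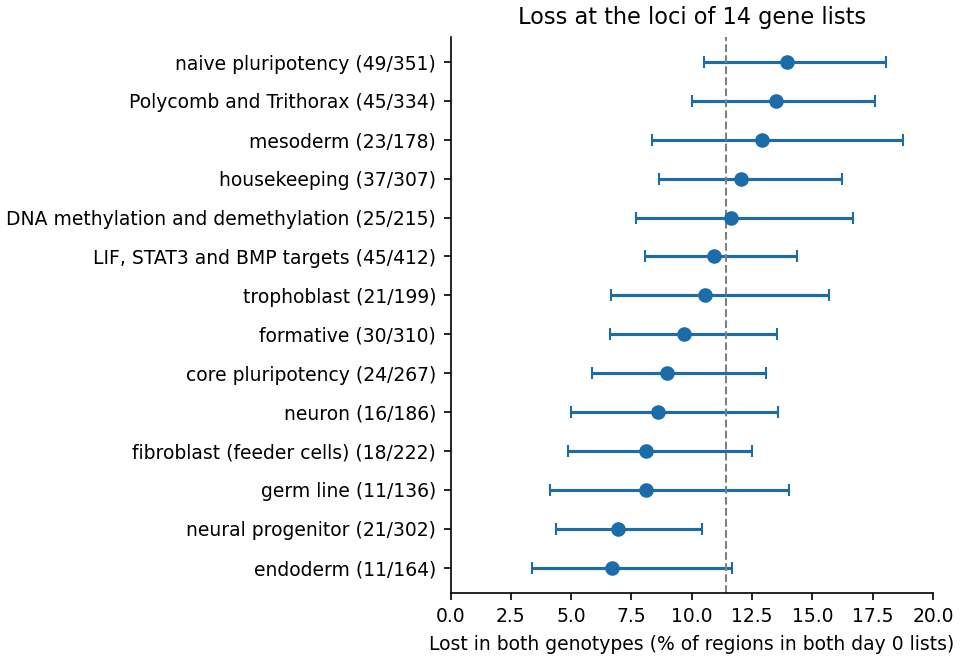
Share of the regions of both day 0 lists that were lost in both genotypes (x axis, percent) at the loci of 14 gene lists, with lost and all regions of each list in brackets. Points carry exact 95% binomial intervals, and the dashed line is the share over all regions (11.4%). The neural progenitor interval (4.36 to 10.4%) lies below the line and every other interval crosses it. Endoderm has a lower share (6.71%) with a wider interval (3.40 to 11.7%). The intervals are not corrected for the number of lists.

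Klf5, a KLF factor of the naive network, had the most lost regions in the naive list, 9 of 28. Its locus held 24 peaks in KO and 22 in WT at day 5, and 36 in KO and 33 in WT at day 0. Of these 9, 1 lay in the gene and 8 outside it. At Esrrb, an orphan nuclear receptor, 8 of 47 regions were lost, with 46 peaks in KO and 39 in WT at day 5, and 54 in KO and 53 in WT at day 0. One of them ended 663 bp from an Esrrb start (809 bp in KO, 989 bp in WT at day 0). Tet2, an enzyme that oxidises methylated cytosine, lost 6 of 23 regions, and its peaks numbered 24 in KO and 19 in WT at day 5, and 31 in KO and 25 in WT at day 0. These 3 loci are the naive ones with the most lost regions, so their lower day 5 peak numbers follow from that choice.

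Shares at the other genes of the naive and core pluripotency lists lay on both sides of the 11.4% over all regions. Nanog lost 4 of 28 (14.3%), all outside the gene, with 31 peaks in KO and 22 in WT at day 5, and 34 in KO and 33 in WT at day 0, and its own starts lay in regions of all 4 lists. Among the others above 11.4% were Mybl2 (4 of 21), Nr5a2 (3 of 21), Klf2 (3 of 22) and Tfcp2l1 (3 of 22). Among those below it were Klf4 (1 of 10), Dppa3 (3 of 31), Tbx3 (2 of 26), Prdm14 (1 of 20), Sox2 (1 of 21) and Zfp42 (1 of 23). The most in the core list was 5 of 25 (20%), at Lin28a, which blocks maturation of let-7 microRNAs. Utf1, a chromatin factor of stem cells, and Nr0b1, a repressor of the naive network, lost 0 of 20 and 0 of 3.

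The list of LIF, STAT3 and BMP targets, which also holds genes such as Lifr, Il6st, Stat3 and the Lefty genes, lost 45 of 412 regions (10.9%, 8.08 to 14.3). Sgk1, a serum-induced kinase, had the most of them, 7 of 47, and Pim1, a kinase induced through STAT3, lost 5 of 31. The LIF receptor gene Lifr lost 3 of 24, Stat3 4 of 30, its feedback inhibitor Socs3 1 of 25, the BMP target Id1 1 of 24 and the Nodal inhibitor Lefty1 3 of 31. Genes of the formative stage, which follows the naive one, lost 30 of 310 (9.68%, 6.62 to 13.5), with Lef1, a Wnt effector, highest at 7 of 40, Otx2 at 2 of 21 and Fgf5 at 1 of 9.

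At neural progenitor loci 21 of 302 day 0 regions were lost (6.95%, 4.36 to 10.4). Regions in all 4 lists made up 77.8% there, 80.6% at neuronal loci and 67.4% over all regions shared at day 0. Msi1, an RNA-binding protein of neural stem cells, had the most, 3 of 41. Sox1 lost 2 of 14 and Pax6 2 of 16, and both lost regions of each lay outside the gene. Hes5, Zic1, Zic2, Zic5 and Emx2 lost none. Neuronal genes lost 16 of 186 (8.60%), with Map2, Elavl3 and Ncam1 at 3 each.

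Among Polycomb and Trithorax genes, which encode chromatin modifiers of developmental loci, 15 of 15 had a lost region and 45 of 334 regions were lost (13.5%, 10.0 to 17.6). Jarid2 lost the most, 8 of 53. Ezh2, the methyltransferase of Polycomb complex 2, lost 6 of 18, with 19 peaks in KO and 11 in WT at day 5, and 24 in KO and 22 in WT at day 0. Ezh2 was chosen after its values were seen, and a lost region has no day 5 peak by the rule. The Ezh2 start lay in a region of all 4 lists. DNA methylation and demethylation genes lost 25 of 215 (11.6%), most at Tet2. Housekeeping genes, which serve as a comparison, had a lost region in 15 of 15 and lost 37 of 307 (12.1%, 8.63 to 16.2), with Polr2a and Eef1a1 highest at 5 each.

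The remaining lists were mesoderm with 23 of 178 lost (12.9%), trophoblast with 21 of 199 (10.6%), endoderm with 11 of 164 (6.71%, 3.40 to 11.7), germ line with 11 of 136 (8.09%) and 2-cell-like genes with 3 of 17 (17.6%, 3.80 to 43.4). The genes with the most lost regions in these lists were Mixl1, a homeobox gene of the primitive streak (5 of 9), Tfap2c and Tead4 (4 each), Lama1 (5 of 20), Tex101 (4 of 21) and Zfp352 (2 of 4). Fibroblast markers, which could report feeder cells carried over, lost 18 of 222 (8.11%, 4.88 to 12.5), and 8 of the 16 markers had a lost region. Summed over the 16 loci there were 282 peaks in KO and 253 in WT at day 5, and 303 in KO and 259 in WT at day 0. Thy1 had the most lost regions, 4 of 24, and the collagen genes Col1a1, Col1a2 and Col3a1 had 0 of 26, 0 of 15 and 0 of 7. The part of feeder cells in the lost regions was not tested.

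Across all lists, 11 of 188 genes had a lost region within 1 kb of a start (5.85%, 2.96 to 10.2), against 3.9% of all protein-coding genes. Among them were Pou5f1, Foxd3, Esrrb, Dnmt1, Eef1a1 and Kmt2d by an annotated start, and Sox3, Lefty2, Dppa3 and Dppa2 by a gene end, which may not be the start. At Sox3, a SOXB1 factor, the region over the gene end measured 613 bp in KO and 500 bp in WT at day 0, with a KO day 5 peak 14 bp away. At Dnmt1, the maintenance DNA methyltransferase, a region 725 bp from a start measured 1121 bp in KO and 822 bp in WT, and no day 5 peak lay within 4683 bp in KO or 4718 bp in WT.

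Over the whole genome, the loci with the most lost regions were those of long genes. Pard3, a cell polarity scaffold, lost 19 of 73 regions, with 84 peaks in KO and 80 in WT at day 5, and 97 in KO and 92 in WT at day 0. Next came Macf1, a cytoskeletal crosslinker (14 of 76), Rngtt, the mRNA capping enzyme (13 of 40), and Rapgef4 (13 of 50), Ank3 (13 of 70), Pitpnc1 (13 of 71), Cacna1a (13 of 75), Smyd3 (13 of 78), Cdh13 (13 of 83) and Tenm3 (13 of 85). Ordered by share instead, among genes with at least 15 day 0 regions, the highest were Dbf4, the activator of the replication kinase CDC7 (7 of 16, 43.8%), Zfp936 (8 of 19), Lct, Map6d1 and Nutm2 (7 of 17 each), and Ccr6, Erich5, Ngp, Sltm and Zfp445 (6 of 15 each). At Dbf4 there were 15 peaks in KO and 12 in WT at day 5, and 21 in KO and 22 in WT at day 0. The loci of both orders were picked by their lost regions, so lower day 5 peak numbers follow from that choice. The highest shares came from loci of 15 to 19 day 0 regions, near the floor of 15, where counting error is largest. They are the extremes of 11819 genes, of which 1030 lost none.

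Lost regions were spread along the chromosomes with little clustering. The share lost ran from 10.7% on chromosome 6 to 12.5% on chromosome 8 among the 19 autosomes. On X it was 8.16% (7.30 to 9.07), against 11.5% (11.3 to 11.6) over the autosomes. In KO, 9.58% of X regions shared at day 0 had no day 5 peak, against 14.9% on autosomes, and in WT the shares were 29.6 and 29.2%. The X lists themselves were longer in KO, with 6659 peaks in KO and 4112 in WT at day 5, and 5565 in KO and 4273 in WT at day 0, and the part of this in the lower X share was not tested. Within 1 kb of a lost region, 16.5% of the next day 0 regions were lost, against 13.3% next to a region that was not lost, and at 10 to 50 kb the shares were 11.3 and 10.3%.

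The densest 100 kb of the genome held 10 lost regions of 25, around the GTPase gene Rap1b (chromosome 10, 117800001 to 117900000), where 17 peaks were listed in KO and 16 in WT at day 5, and 30 in KO and 27 in WT at day 0. Next, with 9 each, came the bins of Mtmr12 (9 of 23), of Pom121 and Hip1 (9 of 23), of Srsf1, a splicing factor, and Vezf1 (9 of 28), and of Cbfb, the partner of RUNX factors, and E2f4 (9 of 29). These bins were picked by their lost regions, so lower day 5 peak numbers follow from that choice.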

How the data were processed

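For each library the authors deposited the coordinates of its peaks alone, without any height, score or read number. The file headers give cellranger-arc 2.0.0 and mm10 for each list separately. The submitters' processing notes also list Scanpy, version 1.7.2, with no role. Depth is unknown. Positions are other values than measurements of signal, so the deposited positions were compared by overlap alone, with no test.

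Peaks were merged at an overlap of 1 bp or more (Python 3.11.15, pandas 2.3.3, scipy 1.17.1), and the merging and distance steps were tested on simulated data. Protein-coding genes came from a GRCm38.p6 table, and gene starts from RefSeq promoter windows for 17492 of 21887 genes. The other 4395 genes were placed by both gene ends. No genome sequence was used, so the planned motif counts in whole regions were replaced by counts in the 300-base windows. The members, 15 gene lists and rules were chosen with earlier results of these data known. Genes are named if they are among 23 fixed pluripotency, signalling and neural genes, the highest of each list, the top 10 by lost regions or by share (1 per 200 kb), the 5 widest regions, the 5 densest bins of 100 kb, list genes with a lost region at a start, or those nearest the overlap limit. Other named genes, lost starts among them, were chosen after their values were seen.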

Additional observations from a re-analysis of the deposited data

How the results depend on the processing

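The number of lost regions stayed within 1.5 times of the reported value except without the KO day 5 list (48184). The share of day 0 regions lost was 12.3% with a reciprocal overlap of 50%, 12.2% with the widest peaks in equal numbers (189571 per list), 8.67% with no day 5 peak within 500 bp, 14.8% without the WT day 5 list and 29.2% without the KO day 5 list. In the order of the first 3 of these settings, the share of lost regions at a gene start was 4.81, 3.26 and 2.61%, and it was 3.87% without the KO day 5 list, 2.18% within 500 bp of a start, 18.9% within 5 kb and 2.82% with annotated starts alone (chosen after seeing the data). The median of the narrower day 0 width was 831 bp, and 846, 846 and 847 bp under the first 3 settings, 833 bp without the WT and 846 bp without the KO day 5 list. The share at naive pluripotency loci was 9.97% with no day 5 peak within 500 bp, where all regions stood at 8.67%, and 33.6% without the KO day 5 list, where all stood at 29.2%; its other 6 alternatives stayed in the interval of the reported value. Autosomes alone moved none of the 5 results out of their interval. Why these values moved was not tested. Motif counts in whole regions were not run, since no genome sequence was used. No paired analysis was possible because each group holds 1 library. With 1 library a group and no read depth, these values describe the 4 libraries.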

Other observations

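Runs of consecutive lost regions, with no retained region of both day 0 lists between them, reached 5 in 3 places. One covered 53.2 kb at Hibch, a valine breakdown enzyme, and 1700019D03Rik (chromosome 1, 52882385 to 52935613), where 1 peak was listed in KO and 0 in WT at day 5, and 6 in KO and 6 in WT at day 0. Another covered 94.4 kb at Nubpl, an assembly factor of mitochondrial complex I, with 5 peaks in KO and 6 in WT at day 5, and 8 in KO and 9 in WT at day 0. The third covered 148.9 kb without a protein-coding gene, with Nr2f2, a nuclear receptor of development, nearest at 617594 bp, and with 2 peaks in KO and 2 in WT at day 5, and 5 in KO and 5 in WT at day 0. Lower day 5 peak numbers in these runs follow from how the runs were picked. Runs of 4 numbered 39, runs of 3 numbered 250 and runs of 2 numbered 1828, and 14238 lost regions stood alone.

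Annotated miRNA hairpins lay in regions of both day 0 lists in 208 cases, of which 11 (5.29%, exact 95% interval 2.67 to 9.27) were in a lost region, against 11.4% of all regions of both day 0 lists. The first share counts hairpins, several of which can lie in the same region, and the second counts regions. Distance from gene starts was not matched between them. Among the hairpins in lost regions, Mir138-1 lay in a region of 796 bp in KO and 935 bp in WT at day 0, and Mir148b in one of 374 bp in KO and 414 bp in WT.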
